A study of Mus musculus with 273 samples.

Results

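Livers collected at zeitgeber time 6 (ZT6, 12 libraries) were set against livers collected at ZT18 (6 libraries) by small RNA sequencing. The 18 libraries were chosen by the time written in the name of each library, not by any measured value, and are 18 of 77 liver libraries and of 273 libraries in all. Every animal was a male wild-type C57BL/6J mouse, an inbred laboratory strain, aged 26 weeks, and each library came from the liver of 1 animal. The ZT6 group held 6 livers taken at 6 h and 6 taken at 30 h of the series, while all 6 ZT18 livers were taken at 18 h. By convention ZT0 is lights on, which places ZT6 in the middle of the rest phase of a mouse and ZT18 in the middle of its active phase; the lighting schedule is not given in the sources used here. The comparison asks which liver miRNAs differ between these opposite phases of the day.

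MicroRNAs are short RNAs cut from a hairpin precursor, and each hairpin can give a 5p and a 3p mature arm. A mature miRNA pairs through its seed, bases 2 to 8, with sites in messenger RNAs and lowers their translation and stability. The liver is one of the organs in which a large part of the transcriptome follows the day, through the clock proteins and through feeding. Whole liver holds hepatocytes, endothelial, stellate and bile duct cells, resident and passing blood cells, so a bulk level sums over all of them. Fewer cells of a type and less RNA per cell cannot be told apart in such libraries.

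Total counts ran from 2402643 to 3373057 in ZT6 libraries and from 2378030 to 3709538 in ZT18 libraries, and did not separate the groups (exact permutation test, two-sided, p = 0.384, adjusted p = 0.512 over 4 library measures). Levels are given as CPM, each count taken relative to the library's total and scaled by edgeR's TMM (trimmed mean of M values). A miRNA with no count could still have had up to 3, a limit of 0.889 to 1.25 CPM in ZT6 libraries and 0.809 to 1.26 CPM in ZT18 libraries that covers counting error only. The 5 most abundant miRNAs, miR-192, miR-22, miR-148a, miR-30a and miR-21a, took a smaller share of the counts in ZT6 livers, 67.5% ± 1.55 (SD, n = 12), than in ZT18 livers, 69.0% ± 0.325 (n = 6; exact permutation test, two-sided, p = 0.0106, adjusted p = 0.0422). On the first principal component of the 18 libraries, which held 20.6% of the variance, ZT6 replicates 2 and 4 lay farthest out, at 5.78 and 4.45, followed by ZT6 replicate 8 at 3.42, while the other 15 libraries lay between -3.68 and 0.976. Without replicates 2 and 4, a setting chosen after seeing the data, 4 miRNAs were called in place of 7 (miR-150, miR-5099, miR-29b-1 and miR-223), so miR-142a, miR-342 and miR-203 lost their calls. The second component (16.4%) was above 0 for every library of the codes L2 and L3, and below 0 for every library of the codes L1 and L8 except those 2; these codes are described with the values within them. The hepatocyte list (miR-122, miR-192, miR-194-1, miR-194-2, miR-148a, miR-802 and miR-101b) summed to 340280 to 458382 CPM in ZT6 livers and 385525 to 460223 CPM in ZT18 livers. Of markers of neighbouring organs, miR-375 of pancreatic islets was at 3.91 to 11.9 CPM in ZT6 livers and 7.01 to 13.4 CPM in ZT18 livers, and of the exocrine pancreas markers, miR-216a had 2 counts over all ZT6 livers and 1 over all ZT18 livers, miR-217 had 4 over ZT6 livers and 2 over ZT18 livers, and miR-216b had none in either group.

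Mature arms of the miRNAs that differed follow, with the 3p arms of miR-29a and miR-29c. The counts add both arms of a hairpin, and miR-150-5p is not shown. Sequences are from RefSeq for GRCm38.p6, 5′ to 3′, with the seed in capitals. miR-5099 is shown as its hairpin, in lower case throughout.
miR-150-3p: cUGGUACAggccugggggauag
miR-342-5p: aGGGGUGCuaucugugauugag
miR-342-3p: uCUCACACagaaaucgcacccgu
miR-223-5p: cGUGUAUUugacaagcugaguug
miR-223-3p: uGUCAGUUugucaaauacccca
miR-142a-5p: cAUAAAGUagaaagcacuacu
miR-142a-3p: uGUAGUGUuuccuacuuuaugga
miR-203-5p: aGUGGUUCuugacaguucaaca
miR-203-3p: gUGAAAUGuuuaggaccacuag
miR-29b-1-5p: gCUGGUUUcauauggugguuua
miR-29b-3p: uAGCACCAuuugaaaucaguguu
miR-29a-3p: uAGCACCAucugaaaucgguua
miR-29c-3p: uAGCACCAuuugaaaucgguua
miR-5099 hairpin: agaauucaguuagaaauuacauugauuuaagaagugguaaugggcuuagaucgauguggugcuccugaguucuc

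The 3p arms of miR-29a, miR-29b and miR-29c shared the seed AGCACCA, and among the other arms printed no seed occurred in more than 1 arm. Counted from 1 at the 5′ end, the miR-29b arm differed from that of miR-29a by U10C, A18G, G21U and U22A, and from that of miR-29c by A18G, G21U and U22A. None of these positions lies in the seed.

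Of 258 miRNA hairpins with enough counts to test, 7 (2.71%) differed at an adjusted p of at most 0.05 by edgeR's quasi-likelihood test with Benjamini-Hochberg adjustment over all 258. At ZT6 6 were higher (2.33%), namely miR-150, miR-5099, miR-29b-1, miR-223, miR-142a and miR-342, and 1 was lower (0.388%), miR-203. Of the 6 higher ones, miR-150, miR-342, miR-223 and miR-142a are known as markers of white blood cells, and all 4 stand in the cell type lists used here. Those lists were chosen with earlier results of these data known. Called were 2 of 3 tested lymphocyte members, 1 of 2 myeloid and 1 of 1 blood lineage, where 2.33% of all 258 were higher. The other tested members, miR-155 and miR-146a, were not called. The changes were 1.42-fold to 2.46-fold for the higher ones and 0.827-fold for miR-203. Without adjustment 21 miRNAs (8.14%) had p under 0.05, against 12.9 that chance alone gives among 258. The median log2 ratio of all 258, ZT6 over ZT18, was 0.01, with 136 above 0 and 122 below, and for none of the 258 (0%) were the 2 groups' ranges fully separate.

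**Figure D1:**
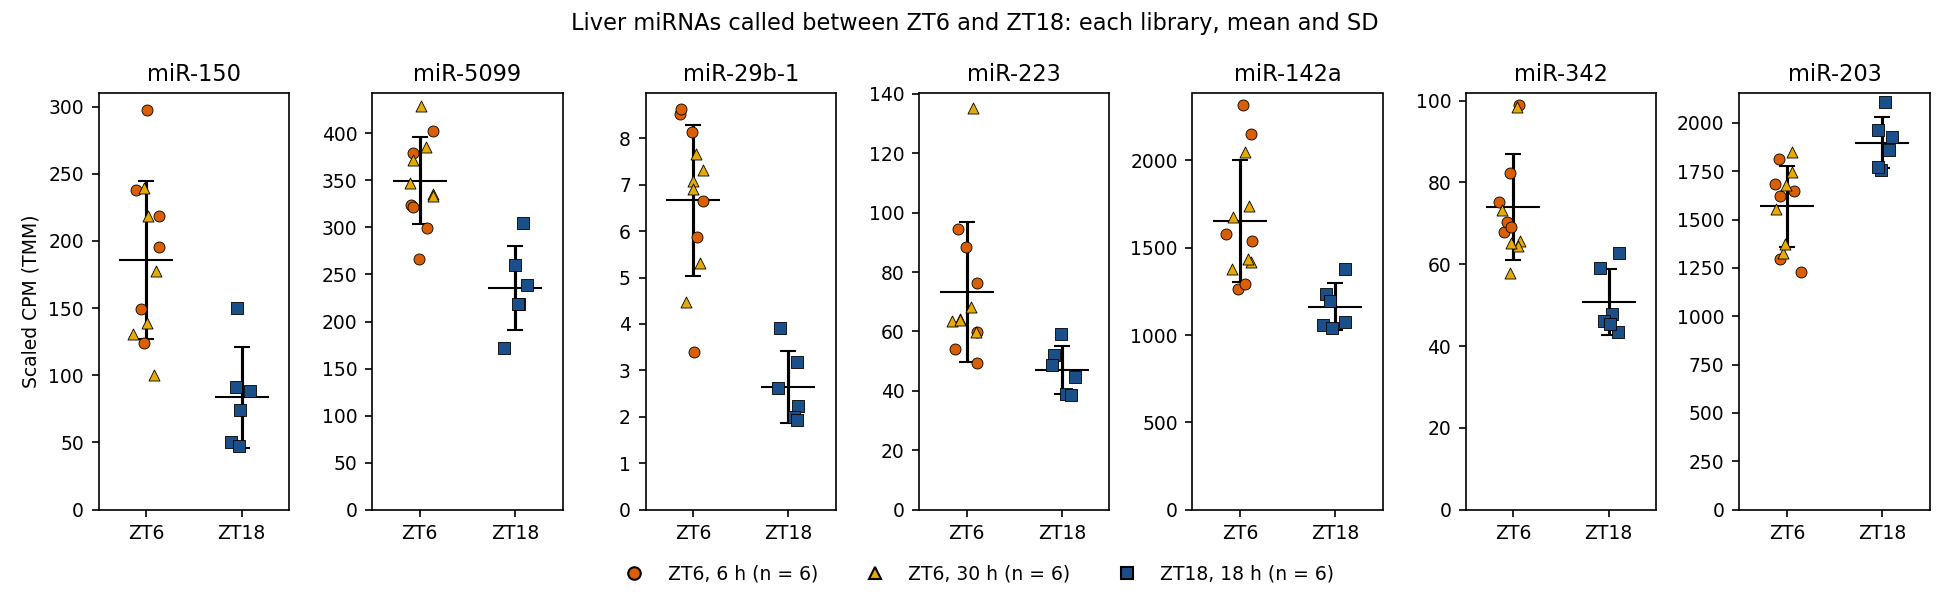
Scaled CPM of the 7 called miRNAs in each liver library, on axes from 0, with ZT6 left of ZT18; circles are 6 h, triangles 30 h and squares 18 h, and bars give the mean and SD. The 12 ZT6 libraries all lie above the ZT18 median for the 6 higher miRNAs, and miR-203 runs the other way, with some overlap in each panel.

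**Figure D2:**
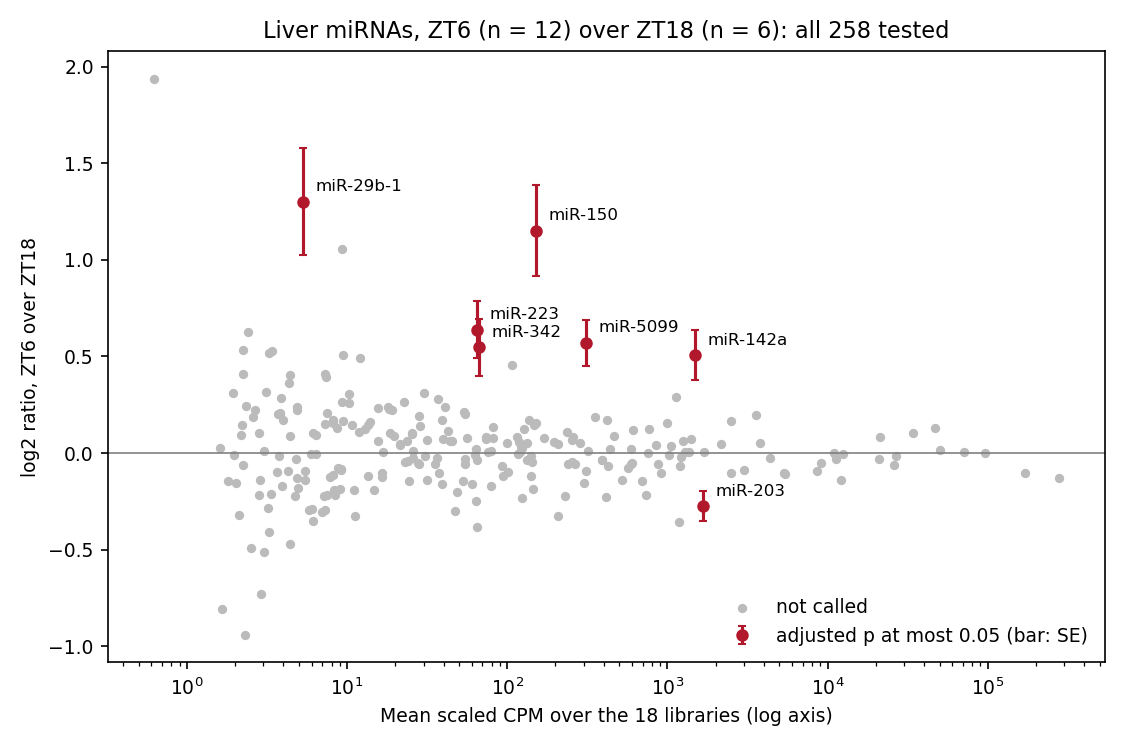
log2 ratio, ZT6 over ZT18, of the 258 tested miRNAs against their mean level over the 18 libraries (log axis), with called miRNAs in red and their standard error as a bar. miR-29b-1 and miR-150 have the largest ratios among the called, miR-29b-1 at a low level, and miR-203 is the called miRNA below 0.

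miR-150, a miRNA of mature B and T lymphocytes that represses the transcription factor gene Myb, showed a 2.22-fold higher level at ZT6 (GRCm38 chromosome 7, 45121757 to 45121821, plus strand, in no annotated host gene). Its scaled level had a lowest value of 100.4 CPM, a median of 186.4 and a highest of 297.2 in ZT6 livers, against 47.4, 81.2 and 150.2 CPM in ZT18 livers. The ranges overlapped: 7 of 12 ZT6 livers were above every ZT18 liver, and all 12 were above the ZT18 median. The log2 ratio was 1.15 ± 0.24 (SE), adjusted p = 0.000872. It was called under every one of 32 alternative settings, with adjusted p of 6.33e-05 by DESeq2 and up to 0.0266 within L8 libraries.

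miR-342, which lies in an intron of Evl and is carried by lymphocytes and other blood cells, was at 57.9, 69.7 and 98.9 CPM (lowest, median, highest) in ZT6 livers, against 43.3, 47.0 and 62.7 CPM in ZT18 livers (chromosome 12, 108658620 to 108658718, plus strand). All but 1 of the ZT6 livers, 11 of 12, exceeded every ZT18 liver. The log2 ratio was 0.55 ± 0.15, a 1.46-fold change with adjusted p = 0.0192. This call was lost when ZT18 replicate 2, 3, 4 or 5 was left out (adjusted p = 0.0627, 0.0688, 0.0572 and 0.0688), and when ZT6 replicates 2 and 4 were both left out (adjusted p = 0.0924). The third listed lymphocyte miRNA, miR-155, which activated lymphocytes and macrophages make, was at 5.19, 12.2 and 24.1 CPM in ZT6 livers and at 8.02, 9.44 and 10.3 CPM in ZT18 livers, and was not called (log2 ratio 0.49 ± 0.30, adjusted p = 0.715). The 3 miRNAs together summed to 176 to 420 CPM at ZT6 and 105 to 223 CPM at ZT18.

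Among the miRNAs of myeloid and all blood cells, miR-223, which granulocytes and monocytes carry and which lies in an exon of the noncoding F630028O10Rik (chromosome X, 96242817 to 96242926, plus strand), was at 49.5, 64.1 and 135.3 CPM (lowest, median, highest) in ZT6 livers and at 38.5, 46.6 and 59.0 CPM in ZT18 livers. Here 10 of 12 ZT6 livers exceeded every ZT18 liver, and ZT6 replicate 9 stood far above the rest of its group. The log2 ratio was 0.64 ± 0.15, 1.56-fold, adjusted p = 0.00349, and without ZT6 replicate 9 it was 0.54 and still called. miR-146a, which restrains inflammatory signalling in macrophages and other cells, was at 495, 1133 and 1549 CPM at ZT6 and 684, 926 and 1216 CPM at ZT18, with a log2 ratio of 0.16 ± 0.22 that was not called (adjusted p = 0.821).

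miR-142a, made in all blood cell lineages from an intron of Mir142hg (chromosome 11, 87756864 to 87756927, plus strand), was at 1264, 1557 and 2319 CPM in ZT6 livers and at 1041, 1136 and 1379 CPM in ZT18 livers. As with miR-223, 10 of 12 ZT6 livers were above every ZT18 liver. The log2 ratio was 0.51 ± 0.13, 1.42-fold, adjusted p = 0.00888. The 2 highest values belonged to ZT6 replicates 2 and 4, and without both of them the log2 ratio was 0.40 with adjusted p = 0.0924. The hairpin miR-142b, on the opposite strand of the same site, had no count in these libraries.

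The markers of red blood cells were measured beside these, since blood left in a liver brings them too. The summed level of miR-451a, miR-144, miR-486a and miR-486b was 890 to 1328 CPM in ZT6 livers (median 961) and 749 to 1325 CPM in ZT18 livers (median 887), and none of the 4 was called. All 4 had log2 ratios above 0 (median 0.11), where 136 of all 258 miRNAs did. miR-451a itself, processed without Dicer in red cell precursors, was at 672, 763 and 1021 CPM at ZT6 and 549, 654 and 1043 CPM at ZT18 (log2 ratio 0.13 ± 0.27, adjusted p = 0.867). All 12 ZT6 livers were above the ZT18 median for miR-451a as well, although the highest liver was a ZT18 one. The part of blood content in the white cell miRNAs was not tested.

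**Figure D3:**
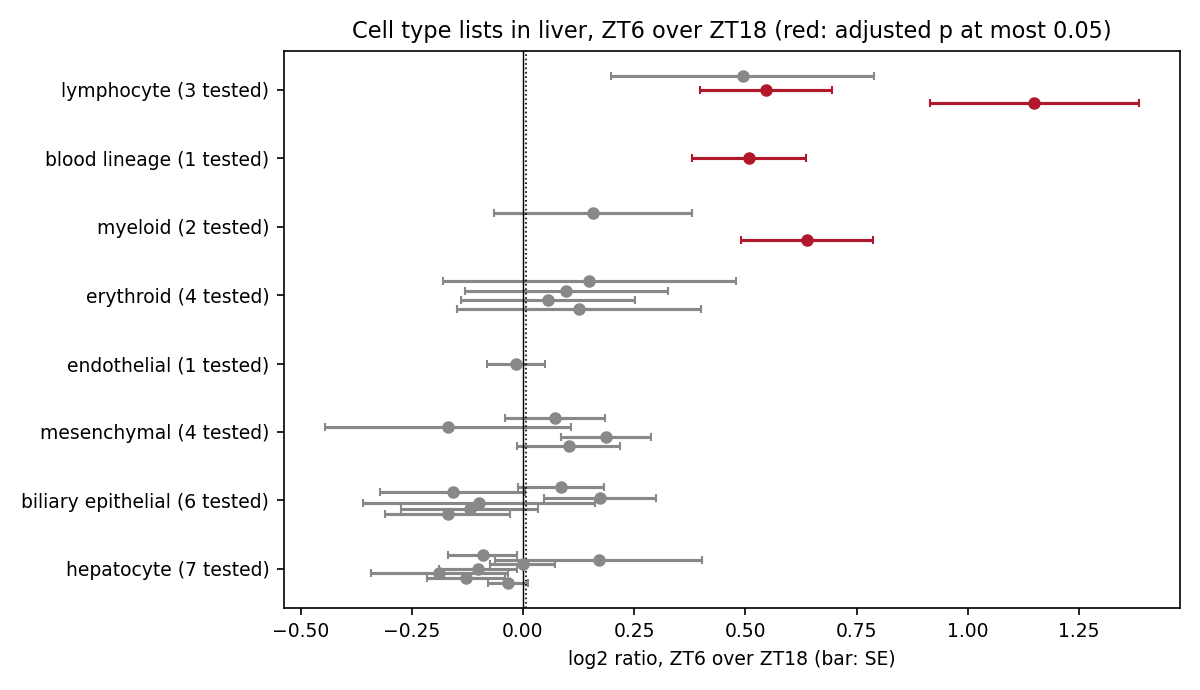
log2 ratio, ZT6 over ZT18, with its standard error for each tested member of 8 cell type lists; red marks an adjusted p of at most 0.05 and the dotted line the median of all 258. The 4 called members belong to the lymphocyte, blood lineage and myeloid lists, and no erythroid, endothelial, mesenchymal, biliary or hepatocyte member was called.

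miR-29b-1 had the largest ratio of the called miRNAs at a very low level (chromosome 6, 31063023 to 31063093, minus strand, in an exon of the noncoding Gm27019). The miR-29 family represses collagen genes and, in liver, is known from fibrosis. Its counts were 10 to 24 per library at ZT6 and 5 to 14 at ZT18, which gave 3.39, 7.0 and 8.63 CPM (lowest, median, highest) in ZT6 livers and 1.94, 2.42 and 3.91 CPM in ZT18 livers. All but ZT6 replicate 3 were above every ZT18 liver, and the log2 ratio was 1.30 ± 0.27, 2.46-fold, adjusted p = 0.000872.

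The other hairpins of the family did not pass the test. miR-29a, 275 bases away on the same strand, was at 3418, 3863 and 4228 CPM at ZT6 and 3475, 3750 and 3844 CPM at ZT18, with a log2 ratio of 0.05 ± 0.05 (adjusted p = 0.817). miR-29b-2, on chromosome 1, was at 1.57, 2.7 and 5.55 CPM at ZT6 and 1.96, 3.00 and 3.88 CPM at ZT18 (log2 ratio 0.01 ± 0.28, adjusted p = 0.988), and miR-29c had a log2 ratio of -0.08. The hairpins of miR-29b-1 and miR-29b-2 end in the same 3p arm, in capitals here, and differ elsewhere.
miR-29b-1 hairpin: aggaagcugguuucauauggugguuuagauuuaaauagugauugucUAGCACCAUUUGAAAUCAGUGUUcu
miR-29b-2 hairpin: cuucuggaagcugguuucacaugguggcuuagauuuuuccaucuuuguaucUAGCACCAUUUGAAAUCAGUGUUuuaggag

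How reads that match several places were counted is not given in the sources used here, so which arm gave the few miR-29b-1 counts cannot be told. The ratio of the miR-29b-1 hairpin therefore need not be that of mature miR-29b. In cortex, as an example of copies with an identical arm, miR-124-1, miR-124-2 and miR-124-3, a miRNA known to be abundant in neurons, summed to 577, 886 and 112 counts over 78 libraries, where miR-29a summed to 4823343. In the 77 liver libraries miR-29b-1 summed to 1105 counts and miR-29b-2 to 696.

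miR-5099 rose 1.49-fold at ZT6 (chromosome 12, 36816205 to 36816278, plus strand, in no annotated host gene). Its lowest, median and highest levels were 266.8, 341.6 and 429.5 CPM in ZT6 livers and 172.2, 228.9 and 304.5 CPM in ZT18 livers, so 10 of 12 ZT6 livers were above every ZT18 liver. The log2 ratio was 0.57 ± 0.12, adjusted p = 0.000872.

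miR-203, known from skin, where it restrains the proliferation of keratinocyte precursors, fell at ZT6 (chromosome 12, 112130880 to 112130955, plus strand, in no annotated host gene). It was at 1230, 1636 and 1849 CPM in ZT6 livers and at 1756, 1892 and 2108 CPM in ZT18 livers, and 10 of 12 ZT6 livers were below every ZT18 liver. The log2 ratio was -0.27 ± 0.08, 0.827-fold, with adjusted p = 0.0352 by edgeR's quasi-likelihood test, the weakest of the 7 calls. It was not called by DESeq2 (adjusted p = 0.0668), with DESeq2's size factors (0.0764) or with library totals (0.354), and 11 of the 18 libraries each ended the call when left out, with adjusted p up to 0.285 without ZT18 replicate 1. ZT6 replicates 2 and 4 held its 2 lowest levels, and without both the log2 ratio was -0.22 with adjusted p = 0.266. miR-203b lies on the opposite strand and all of its 60 bases overlap miR-203. Whether the counting used strand is not given, so how far reads of one entered the counts of the other was not tested. In ZT6 livers miR-203b was at 38.5 to 76.2 CPM at 6 h and 51.0 to 65.9 CPM at 30 h, far below miR-203. The log2 ratio of miR-203b was -0.38 with adjusted p = 0.317.

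The miRNAs miR-335, miR-744, miR-378a, miR-299a and miR-582 came next in order of p and were not called. miR-335, from an intron of the imprinted gene Mest, was at 70.6, 109 and 182 CPM (lowest, median, highest) in ZT6 livers and at 69.6, 89.2 and 93.2 CPM in ZT18 livers (log2 ratio 0.46 ± 0.15, adjusted p = 0.0840). It passed the threshold without ZT6 replicate 1 or 7, by DESeq2 (adjusted p = 0.050) and with library totals (0.0425). The same held with ZT6 livers of 30 h only (0.0456) and at a mean CPM of at least 10 (0.0360). miR-744 (-0.22 ± 0.08), miR-378a (-0.14 ± 0.05), miR-299a (-0.94 ± 0.36) and miR-582 (1.05 ± 0.41) had adjusted p of 0.245 to 0.253. With the replicate number as a block, 1 of 31 alternative settings, miR-582 passed the threshold (log2 ratio 1.24, adjusted p = 0.0286). miR-582 was at 3.46 to 24.8 CPM at ZT6 and 1.68 to 8.29 CPM at ZT18, with wide overlap.

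The abundant miRNAs of the liver did not pass the test. miR-192, of hepatocytes and gut epithelium, was at 202229, 264125 and 329253 CPM in ZT6 livers and 264058, 297633 and 327670 CPM in ZT18 livers (log2 ratio -0.13 ± 0.09, adjusted p = 0.762). Of the ZT6 livers 6 of 12 lay below every ZT18 liver while 1 lay above all of them. miR-22 was at 150580, 166150 and 173800 CPM at ZT6 and 170513, 178897 and 184324 CPM at ZT18, with 8 of 12 ZT6 livers below every ZT18 liver, and its log2 ratio was -0.10 ± 0.09 (adjusted p = 0.817). The 3 others, miR-148a, miR-30a and miR-21a, had log2 ratios of -0.00, 0.01 and 0.02.

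None of the 7 tested hepatocyte miRNAs was called, and their median log2 ratio was -0.09, with 6 below 0 (4 below 0 with library totals). The bile duct and epithelial list had 6 tested and none called (median -0.11), with miR-31 at a log2 ratio of 0.09 ± 0.10 and miR-141 at 0.17 ± 0.13. For miR-126a of endothelium the ratio was -0.02 ± 0.07. Of 4 tested mesenchymal miRNAs, which mark stellate and mural cells, none was called (median 0.09), with miR-143 at 0.10 ± 0.12 and miR-145a at 0.19 ± 0.10. Brain markers miR-338 (0.08 ± 0.10) and miR-128-1 (-0.22 ± 0.15) and the gut marker miR-215 (0.21 ± 0.15) were not called either.

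The list of miRNAs linked to clock genes or light had 29 tested members, of which 2 (miR-29b-1 and miR-142a) rose and none fell, where 2.33% of all 258 rose and 0.388% fell, and its median log2 ratio was 0.00. No member was called of the let-7 (12 tested), miR-17/92 (8), miR-15/16 (7), miR-23/27/24 (6), miR-30 (6), miR-181 (5), miR-26 (3) and miR-34 (2) families. Their members with the smallest p were let-7g (-0.11 ± 0.06), miR-25 (0.07 ± 0.06), miR-15a (-0.14 ± 0.07), miR-24-1 (0.52 ± 0.32), miR-30c-1 (-0.16 ± 0.12), miR-181a-1 (0.27 ± 0.13), miR-26a-2 (0.51 ± 0.21) and miR-34c (0.16 ± 0.19). Of these, the numbered copies miR-24-1, miR-26a-2, miR-181a-1 and miR-30c-1 held 131, 373, 865 and 1343 counts over all ZT6 livers, where miR-26b held 320786. How reads shared between copies were counted is not given, so such rows need not measure the whole mature miRNA.

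The 4 tested miRNAs in introns of lipid and energy metabolism genes, among them miR-378a in Ppargc1b and miR-33 in the sterol regulator gene Srebf2, all had ratios below 0 (median -0.13) and none was called. miR-378a was at 10682 to 13211 CPM at ZT6 and 12392 to 13628 CPM at ZT18, and 9 of 12 ZT6 livers lay below every ZT18 liver. Of the imprinted Dlk1-Dio3 cluster 8 were tested and none called (median -0.18), with miR-127 at -0.15 ± 0.17 and miR-376b at -0.81 ± 0.44. The 5 tested inflammation-linked miRNAs had a median of 0.12 and no call. These medians are read beside that of all 258 miRNAs, 0.01.

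The ZT6 livers of 6 h and of 30 h were next compared with each other, since these livers were taken 24 h apart. No miRNA of 261 (0%) was called between 30 h and 6 h by edgeR's quasi-likelihood test or by DESeq2, with 13 at an unadjusted p under 0.05 by edgeR. For miR-150 the levels were 100.4 to 239.2 CPM at 30 h and 123.9 to 297.2 CPM at 6 h, a log2 difference of -0.30 ± 0.26. Over 5 alternative settings, the L code as a term among them, that difference ran from -0.35 to -0.03. Most 6 h livers had the code L8 and most 30 h livers did not. The median of miR-150 in ZT6 livers was 218.9 CPM within L8 and 139.0 CPM within the other codes. The remaining called miRNAs differed by -0.15 to 0.13 between 30 h and 6 h.

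Each time was also set against the same 6 ZT18 livers, so the 2 sets of values share those libraries. At 6 h, 6 of 261 (2.3%) were called, the same 6 that are higher in the joined group. These livers are part of that group, so the match is not a separate test. At 30 h, 4 of 261 (1.53%) were called, all higher, and miR-142a (log2 ratio 0.48, adjusted p = 0.0706) and miR-342 missed the threshold. When the 6 h livers were instead left out of the fit by ZT, 6 of 259 were called, all higher. That fit called miR-142a and miR-335 but not miR-342 (adjusted p = 0.149). miR-150 had a log2 ratio of 1.32 ± 0.26 at 6 h and 1.02 ± 0.26 at 30 h, and the livers of these times differ in their L codes. miR-203 was not called at either time.

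Library labels carry an L code whose meaning is not given; 5 ZT6 and 3 ZT18 livers had the code L8, and the other 7 ZT6 and 3 ZT18 livers had L1, L2 or L3. Within L8, 3 miRNAs were called (miR-150, miR-5099 and miR-29b-1), and within the other codes 1 was (miR-150). For miR-150 the groups were fully separate in both: 177.5 to 297.2 CPM at ZT6 and 88.2 to 150.2 CPM at ZT18 within L8, and 100.4 to 239.2 CPM at ZT6 and 47.4 to 74.3 CPM at ZT18 within the others. The same held for miR-29b-1, at 3.39 to 8.63 CPM at ZT6 and 2.01 to 2.61 CPM at ZT18 within L8 and 4.47 to 7.32 CPM at ZT6 and 1.94 to 3.91 CPM at ZT18 within the others. These were the only 2 of 258 (0.775%) separate in both sets in the same direction, while 17 (6.59%) were separate within L8 and 11 (4.26%) within the other codes. miR-5099, miR-223, miR-342 and miR-203 were separate within L8 only, and miR-142a within the other codes only. With the L code as a term in the fit, the same 7 miRNAs were called, 6 higher and 1 lower.

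**Figure D4:**
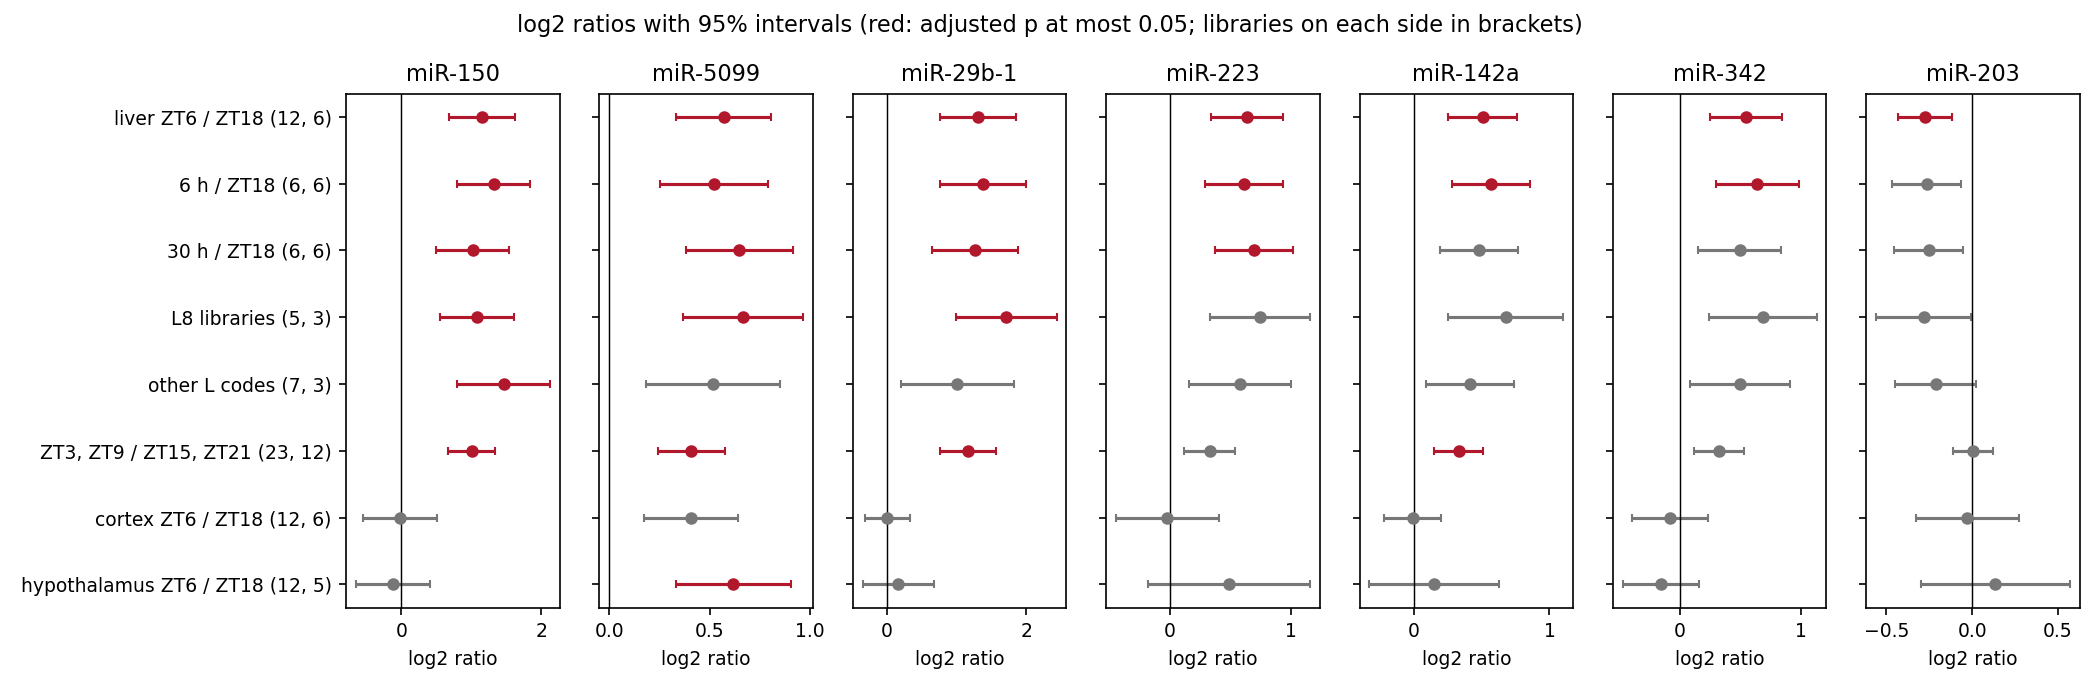
log2 ratios with 95% intervals of the 7 called miRNAs in liver, at 6 h and 30 h, within L codes, between the flanking times and in cortex and hypothalamus, with the number of libraries on each side in brackets and red for an adjusted p of at most 0.05. In liver the ratios keep their sign in each row except that of miR-203 between the flanking times, and miR-5099 is the one with intervals above 0 in both brain regions.

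Liver was also collected at the times on either side, and those livers hold none of the 18 above. ZT3 and ZT9 (23 libraries) were set against ZT15 and ZT21 (12 libraries) in the same fit. By edgeR's quasi-likelihood test 6 of 258 (2.33%) were called, all higher at ZT3 and ZT9, and 50 had an unadjusted p under 0.05. They were miR-150 (log2 ratio 1.0 ± 0.17, adjusted p = 1.81e-05), miR-29b-1 (1.16 ± 0.20), miR-16-1 (0.36 ± 0.07), miR-5099 (0.41 ± 0.08), miR-331 (0.46 ± 0.13) and miR-142a (0.33 ± 0.09). miR-223 (0.33 ± 0.11) and miR-342 (0.32 ± 0.10) had adjusted p = 0.0631 each, and DESeq2 called both. With no filter on low levels miR-331 (adjusted p = 0.0652) and miR-142a (0.0532) were not called. With the L code as a term miR-331 was not called either (log2 ratio 0.32, adjusted p = 0.122); the code L8 was held by 6 of 23 libraries at ZT3 and ZT9 and by 1 of 12 at ZT15 and ZT21. miR-203 had a log2 ratio of 0.01 ± 0.06 there, against -0.27 at ZT6 over ZT18.

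Over the 8 ZT groups the median level of miR-150 was 107.3 CPM at ZT0, 156.4 at ZT3, 186.4 at ZT6, 129.7 at ZT9, 102.1 at ZT12, 54.6 at ZT15, 81.2 at ZT18 and 83.1 at ZT21. The ranges at ZT3 (119.1 to 243.8 CPM) and ZT6 overlapped widely. The medians of miR-223, miR-142a and miR-342 were likewise highest at ZT6, while those of miR-29b-1 (7.14 CPM) and miR-5099 (368.8 CPM) were highest at ZT9. miR-203 had its lowest median at ZT6, 1636 CPM, and its highest at ZT18, 1892 CPM. All these miRNAs were chosen by their difference between ZT6 and ZT18 in these livers, which favours extreme medians at those times.

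**Figure D5:**
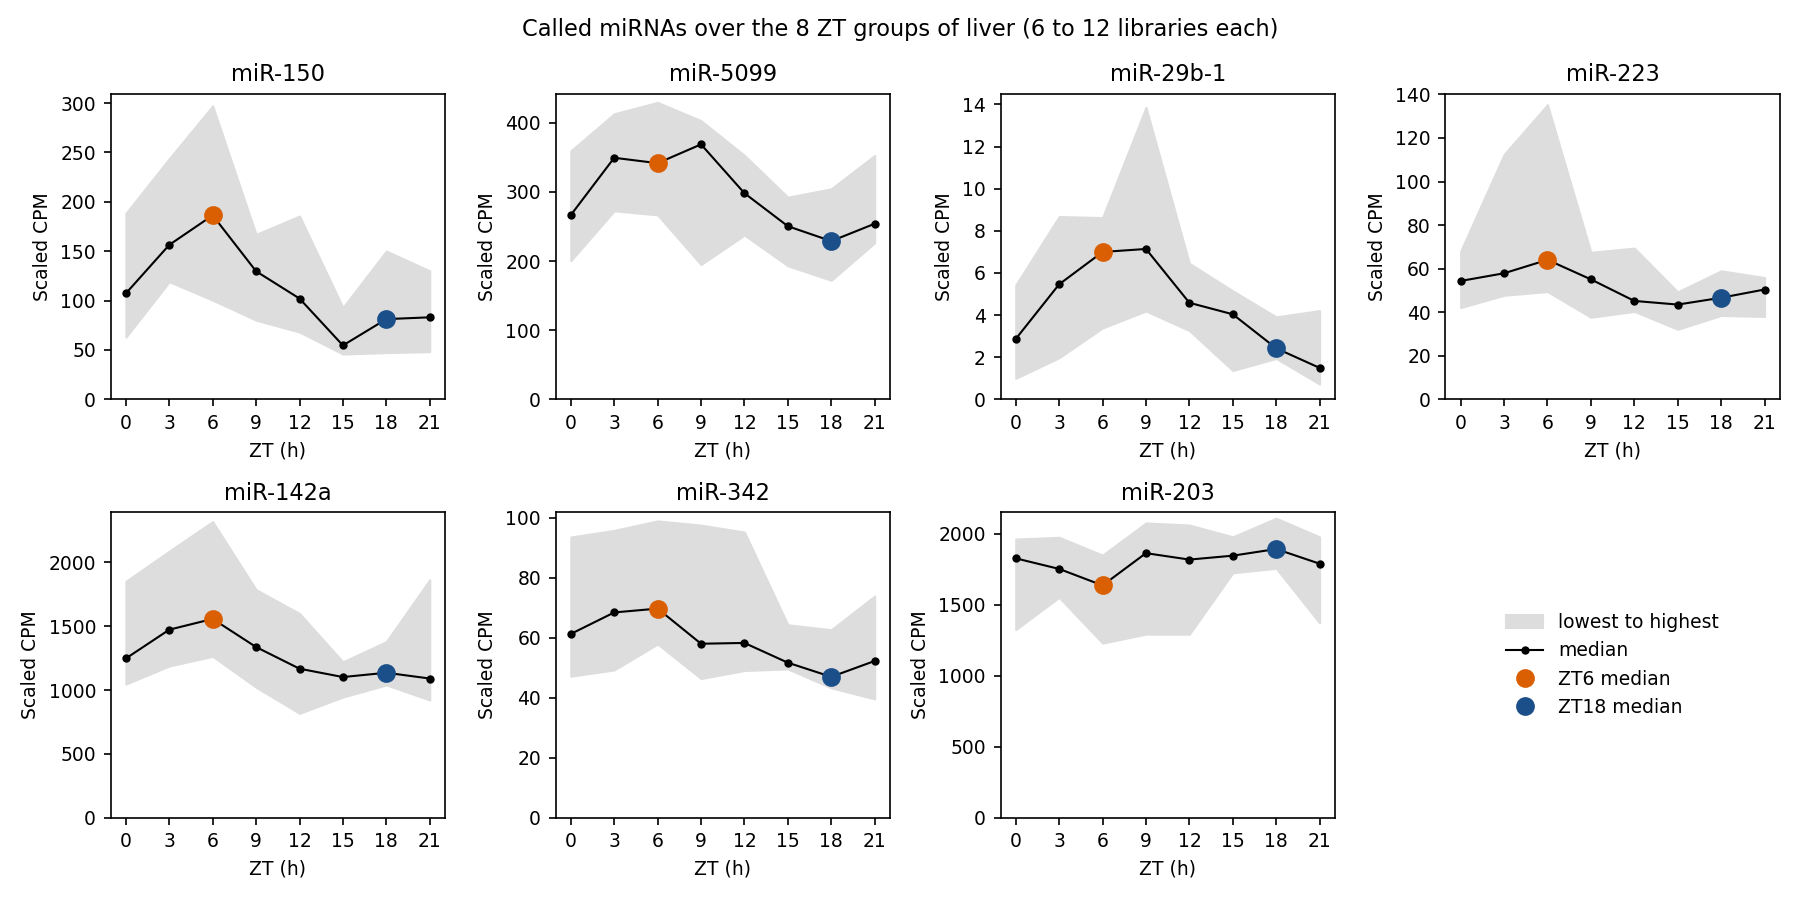
Median scaled CPM (line) and range from the lowest to the highest library (grey) of the 7 called miRNAs over the 8 ZT groups of liver, with ZT6 in orange and ZT18 in blue. miR-150, miR-223, miR-142a and miR-342 have their highest median at ZT6, and miR-29b-1 and miR-5099 at ZT9. The miRNAs were chosen by their difference between ZT6 and ZT18.

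Cortex and hypothalamus of the same mice gave the contrast in brain tissue. The libraries were 12 at ZT6 and 6 at ZT18 in cortex, and 12 at ZT6 and 5 at ZT18 in hypothalamus. All 12 ZT6 animals were also in the libraries of both brain regions, and of the 6 ZT18 animals 6 were in cortex and 5 in hypothalamus; the fits treated the libraries as separate. In cortex none of 413 miRNAs (0%) was called by edgeR's quasi-likelihood test, with 9 at an unadjusted p under 0.05, and in hypothalamus 1 of 400 (0.25%) was. That one was miR-5099, at 63.1, 97.0 and 116.9 CPM in ZT6 hypothalami and 45.4, 63.3 and 92.3 CPM in ZT18 hypothalami (log2 ratio 0.62 ± 0.14, adjusted p = 0.0197). In cortex it was at 54.2, 95.2 and 112.4 CPM at ZT6 and 63.8, 66.5 and 86.0 CPM at ZT18 (log2 ratio 0.41 ± 0.12, adjusted p = 0.370).

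The difference between liver and cortex was tested as an interaction, and 1 of 431 (0.232%) was called. miR-29b-1 was at 10.2, 14.1 and 18.5 CPM in ZT6 cortex and 11.1, 13.9 and 18.5 CPM in ZT18 cortex, and the liver ratio exceeded the cortex ratio by 1.28 ± 0.31 on the log2 scale (adjusted p = 0.0221). Testing every miRNA without a filter ended that call (adjusted p = 0.0574). For miR-150, at 1748, 3516 and 5014 CPM in ZT6 cortex and 1640, 3636 and 5784 CPM in ZT18 cortex, the difference was 1.14 ± 0.36 (adjusted p = 0.291). Between liver and hypothalamus none of 441 (0%) was called by edgeR or by DESeq2, with 28 at an unadjusted p under 0.05 by edgeR, and miR-5099 had a difference of -0.08 ± 0.19.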

How the data were processed

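Small RNA libraries of mouse liver were prepared from an enriched fraction of total RNA and sequenced on an Illumina instrument, per the labels' protocols. The deposited tables hold raw read counts per miRNA hairpin, with both arms added; the authors used STAR 2.7.3a, HTSeq 0.10.0 and GRCm38 (mm10), per the submitters' processing notes. Adapter trimming, the miRNA annotation release, the handling of reads with several matches and strand use are not given in the sources used here.

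Groups were taken from the time in each library's name. All 77 liver libraries entered one edgeR 4.0.16 quasi-likelihood fit (R 4.3.3) with ZT as a factor of 8 levels, TMM scaling and edgeR's filterByExpr, which kept 258 of 1226 hairpins; p-values were adjusted by Benjamini-Hochberg over all of them and calls made at 0.05. Times within ZT6 used a fit with 13 time points, and tissue differences an interaction. DESeq2 1.42.0, other scalings and filters, an L code term and leaving out libraries were alternatives. Library measures used exact permutation tests (SciPy 1.17.1). Of the fits, only the edgeR fit of liver ZT6 against ZT18 was tried on simulated counts. The principal components used log2 of scaled CPM plus a pseudocount of 1. Scaled CPM, computed here with edgeR, is the count relative to the TMM-scaled library total.

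The miRNAs and lists were chosen with earlier results of these data known. Named miRNAs were those called, the 12 smallest p, the 5 most abundant, for each list its member of smallest p and of highest level, tested neighbours and copies of called ones, and the 5 largest ratios at a mean CPM of at least 10. Other miRNAs named (miR-203b, miR-29c, miR-16-1, miR-331, miR-671, miR-409, miR-33 and printed marker names) were picked with their values in view. The brain regions' own contrasts, the ranges within L codes and the principal components were added after seeing the data. The libraries are of 18 animals, 1 each. Same-numbered ZT6 and ZT18 libraries correlated in their deviations by -0.064 to 0.091, and the numbers mark no stated pairing. No 2 libraries of a group agreed within sampling noise (smallest chi-square per degree of freedom 20.5). The intervals of log2 ratios come from the fit and include the spread between libraries; the floor of 3 counts covers counting error only. Positions and sequences are from RefSeq for GRCm38.p6, which placed all 258 tested hairpins. Striatum was not analysed here.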

Additional observations from a re-analysis of the deposited data

Results flagged for a closer look

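In groups of 6 livers taken at one time, a library was noted where its gap to the nearest other one took up an unusual part of the group's range. Of 39 groups of miRNA levels or library totals looked at, 3 held such a library, where chance gives about 1 in 20 groups (1.95 of 39). miR-223 was at 135.26 CPM in ZT6 replicate 9, taken at 30 h, with the next liver of that time at 68.3 CPM. miR-582 was at 22.6 CPM in ZT6 replicate 8, also taken at 30 h, with the next at 11.2 CPM. miR-335 was at 69.6 CPM in ZT18 replicate 5, the lowest of its group, with the next at 84.6 CPM.

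The ZT6 over ZT18 ratio of miR-29b-1 differed between liver and cortex by 1.28 on the log2 scale (edgeR's quasi-likelihood test of the interaction, adjusted p = 0.0221). In liver 11 of 12 ZT6 libraries exceeded every ZT18 library, and in cortex the ranges of both times were nearly the same.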

How the results depend on the processing

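Of the 7 calls between ZT6 and ZT18, miR-150 held under all 32 alternatives and miR-203 was lost under 23 of them, with adjusted p up to 0.848. The number called was 3 within L8 libraries, 1 within the other L codes and 4 without ZT6 replicates 2 and 4, and 5 to 8 when single libraries were left out. It was 6 to 8 under the remaining settings. miR-29b-1 and miR-5099 lost their call only within the other L codes, apart from the fit on miRNAs of a mean CPM of at least 10, which leaves miR-29b-1 out. With the 18 libraries alone miR-223 (adjusted p = 0.0541) and miR-203 (0.0952) lost their calls, and miR-671, not among the 7, was called as lower. Between the flanking times 12 were called by DESeq2 and 10 with DESeq2's size factors, and between liver and cortex 0 were called with no filter on low counts; in these cases the cause was not tested. No scaling moved the median log2 ratio of all miRNAs by over 0.1.

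With the replicate number as a block, 8 miRNAs were called, 5 of them among the 7, and miR-203 (adjusted p = 0.202) and miR-223 (0.0912) were not. Also called were miR-582 (adjusted p = 0.0286), miR-331 (0.0394) and miR-409. Same-numbered libraries correlated by -0.064 to 0.091, so the numbers were not taken as pairing the samples.

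Signs changed for some log2 ratios, none of them called, and most were near 0, although that of miR-29b-2 reached -0.445 at 30 h alone. They became 0.00175 for miR-148a by DESeq2 and with its size factors, and -0.0208 and -0.0207 for miR-203 between the flanking times. With library totals they were 0.0316 (miR-126a), 0.0488 (miR-148a), -0.0329 (miR-203, 30 h against 6 h) and 0.0167 (miR-5099, liver minus hypothalamus). With no filter they were 0.00810 (miR-148a), -0.00597 (miR-203, flanking times) and -0.0109 (miR-203, 30 h against 6 h), and at a mean CPM of at least 10 they were 0.00026 (miR-126a) and 0.0155 (miR-148a). With the L code as a term they were -0.0166 (miR-144), 0.0156 (miR-148a), -0.00234 (miR-21a), -0.0224 (miR-29b-2) and -0.0211 (miR-30a). Within L8 they were 0.0117 (miR-126a), -0.162 (miR-144), 0.114 (miR-148a), 0.0514 (miR-27b) and -0.0663 (miR-451a), and within the other codes 0.0845 (miR-181c), -0.137 (miR-34a) and 0.0541 (miR-375). At 6 h alone they were -0.0516 (miR-141), -0.122 (miR-144), -0.00114 (miR-146a), 0.00749 (miR-148a), -0.0896 (miR-21a), -0.047 (miR-30a) and -0.0315 (miR-338). At 30 h alone they were 0.0701 (miR-126a), 0.0206 (miR-181c), 0.00816 (miR-27b), -0.445 (miR-29b-2) and -0.0254 (miR-34a). With the replicate block they were -0.0236 (miR-141), -0.0659 (miR-144), -0.135 (miR-146a), -0.0435 (miR-21a), 0.0274 (miR-29c), -0.0749 (miR-30a) and -0.0409 (miR-34a), and without ZT6 replicates 2 and 4 they were 0.0190 (miR-126a), -0.0160 (miR-29b-2) and -0.0588 (miR-34a).

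When single libraries were left out, the ranges that crossed 0 were -0.0301 to 0.0123 (miR-126a), -0.0198 to 0.0303 (miR-148a), -0.0815 to 0.0147 (miR-181c), -0.0240 to 0.0623 (miR-21a), -0.106 to 0.0127 (miR-27b), -0.100 to 0.102 (miR-29b-2), -0.0104 to 0.0332 (miR-30a), -0.0371 to 0.214 (miR-34a) and -0.00027 to 0.261 (miR-486a). For liver minus hypothalamus, with hypothalamus ZT18 libraries left out, they were -0.0782 to 0.189 (miR-16-1) and -0.230 to 0.0458 (miR-5099). A miRNA with no count in a library could have been present at up to the floor of 3 counts, 0.889 to 1.25 CPM in ZT6 livers and 0.809 to 1.26 CPM in ZT18 livers, and ratios of miRNAs with counts near it, such as miR-376b and miR-299a, are imprecise.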

Other observations

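Over the 12 ZT6 livers, correlations among the 7 called miRNAs were computed for 21 pairs after seeing the data. miR-142a and miR-203 varied in opposite directions (Pearson's r = -0.817, permutation p = 0.00191, adjusted p = 0.0401; Spearman's rho = -0.615, permutation p = 0.0379, adjusted p = 0.159), and r was -0.643 without the 2 livers farthest from the median of the first miRNA of the pair. miR-29b-1 and miR-142a varied together (Pearson's r = 0.722, permutation p = 0.00756, adjusted p = 0.0794; Spearman's rho = 0.846, permutation p = 0.00088, adjusted p = 0.0185), with r = 0.725 without the 2 farthest livers. Over the 6 ZT18 livers Pearson's r of the first pair was 0.706, of the opposite sign, and that of the second was -0.0406, neither of them tested. ZT6 replicates 2 and 4 held the 2 highest levels of miR-142a and the 2 lowest of miR-203. No L code holds 6 ZT6 livers, and no correlation within a code was computed.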
